A study of Mus musculus with 629 samples.

Results

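Nuclear oxidative phosphorylation genes encode the subunits of the respiratory chain and of ATP synthase that are made in the cytosol and imported into mitochondria. They were chosen by symbol alone: the Nduf a, b, c, s and v series, Sdha to Sdhd, the Uqcr series, the Cox4 to Cox8 series and the Atp5 series, without genes marked as pseudogenes by their symbol. The rule took 90 of the 53546 gene symbols in the count table. Complex I held 41 of them, complex II held 4, complex III held 8, complex IV held 19 and complex V held 17. Cox7a2l, which helps join complexes into supercomplexes, was kept outside the complex sums. Ndufa4 was placed in complex IV, where its protein resides. Annotation lists 4 of the 90 as processed pseudogenes, namely Ndufs6b, Cox6c2, Ndufb4c and Ndufa11b, with 3, 5, 11 and 1 counts in that order.

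The respiratory chain passes electrons from NADH (complex I) and succinate (complex II) through complex III to oxygen at complex IV, and pumps protons across the inner mitochondrial membrane. ATP synthase (complex V) uses the proton gradient to make ATP. Complex I has core subunits, which carry the cofactors and pump the protons, and accessory subunits, which surround them. In resident macrophages and microglia, oxidative phosphorylation is known as the main ATP source of the resting state.

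The cells came from brains of adult C57BL/6 mice that carried SM22-Cre and a Rosa26 stop tdTomato reporter in all groups, and that were wild-type (WT), heterozygous (Het) or knockout (KO) for Notch3. SM22 is a smooth muscle promoter, so the reporter was built to mark mural cells, not the cells described here. Single cells had been sorted into 384-well plates and sequenced with SMART-seq2, a full-length method without molecular identifiers, and the labels named 400 cells macrophages, 215 microglia and 14 only by the number 7. Macrophages came as 211 WT, 70 Het and 119 KO cells, and microglia as 79 WT, 58 Het and 78 KO cells. No label named an animal, so a genotype of a cell type was 1 sample and no test was made. Each cell type was split by genotype and plate into the same 8 pools: WT on plates 059s, 529s and 530s, Het on 056s, 524s and 529s, and KO on 060s and 524s.

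Pools held 2470852 to 35356083 counts in macrophages and 2950818 to 18962602 in microglia, after spike-ins and Rn18s were left out. Rn18s alone took 16.4% to 56.4% of a pool's gene counts, lowest in the Het pools of plate 056s. The macrophage markers, such as Mrc1 and Pf4, summed to 29800 to 40290 CPM in macrophage pools and to 9899 to 19000 CPM in microglia pools. The microglia markers, such as Tmem119 and P2ry12, summed to 3901 to 11350 CPM in macrophage pools and to 30900 to 59470 CPM in microglia pools. CPM is counts per 1000000 counts of a pool's total. Most of the microglia marker sum in macrophages came from Fcrls, at a mean of 4516 CPM against 5280 CPM in microglia, and Cx3cr1, at 1969 against 7018 CPM, whereas Tmem119 stood at 134.6 against 6167 CPM. Neither set of markers was absent from the other cell type, and the part of these shared levels in the results below was not tested. Notch3 could not check the genotype labels: it had 77 counts in 1 of 211 WT macrophages, 0 counts in Het macrophages, 2 in KO macrophages and 1 count in each genotype of microglia. The mural markers summed to 0.325 to 13.2 CPM in macrophage pools and 0.621 to 103 CPM in microglia pools. The highest sum, in the KO microglia of plate 524s, was mostly Vtn at 95.96 CPM.

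A gene counted as measured if, within 1 genotype of a cell type, its level was 20 CPM or more and 25% of cells or more held a count of it. Of the 90 genes, 57 were measured: 25 of complex I, 4 of complex II, 7 of complex III, 9 of complex IV, 11 of complex V and Cox7a2l. All 57 were measured in macrophages and 53 in microglia. The other 33 genes stay in the complex sums but not in the counts of genes below. A gene that passed the filter through 1 group only had to be high there, so the 57 are not all of the chain. Over all genes 6987 were measured, 5483 of them in macrophages and 6796 in microglia. The filter thus leaned towards microglia over all genes and towards macrophages in the set.

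Levels between genes were compared as CPM per kb of merged exon, because SMART-seq2 reads fall along the whole transcript. Among the measured genes with the highest level over both cell types, the first was Atp5b, the catalytic beta subunit of ATP synthase, at 360.5 CPM per kb. Cox4i1, the nuclear regulatory subunit of complex IV, followed at 239 CPM per kb, and Atp5a1, the alpha subunit of ATP synthase, at 207 CPM per kb. Then came Uqcrc1, a core protein of complex III, at 170 CPM per kb, and Sdha, the flavoprotein of complex II, at 134 CPM per kb. Cox6a1 and Cox8a of complex IV stood at 110 and 106 CPM per kb, Ndufs7 of the complex I core at 85.5 CPM per kb, and Atp5d of ATP synthase at 80.2 CPM per kb. All 5 complexes therefore had a gene among the highest by this measure. The order depends on the length used, since the annotated main transcript can be shorter than the merged exons, as for Atp5c1 (1166 against 1815 bases).

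These leading genes were found in most cells. Atp5b ranged from 448 to 965 CPM over the macrophage pools, with a median of 784 CPM, and had a count in 97.75% of macrophages. In microglia it ranged from 537.5 to 754.6 CPM, with a median of 648 CPM, and 98.6% of cells held a count. The pools of the cell types overlapped. Cox4i1 ranged from 134 to 267 CPM in macrophages (median 220) and from 108 to 203 CPM in microglia (median 153), and 95.5% of macrophages and 98.1% of microglia held a count of it. Ndufv1, which binds NADH in complex I, was found in fewer cells: its mean level was 60.24 CPM over the macrophage pools and 60.25 CPM over the microglia pools, but 38.75% and 52.56% of cells held a count. The number of genes of the set with a count per cell had a median of 46 in macrophages and 51 in microglia, and of 38 and 40 when each cell was thinned to 62358 counts. Cells shallower than that were left out, which kept 360 macrophages and 201 microglia.

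Promoter sequences from RefSeq (GRCm38.p6, 250 bases before to 50 after each start) matched 69 of the 90 genes in 74 windows. They were searched on both strands for NRF1 (GCGCA, any base, GCGC), ETS factors such as GABPA (CCGGAAG) and YY1 (AAGATGGCG), factors known for regulating respiratory genes. NRF1 letters were in 24.6% of the 69 genes and in 5.19% of all 27025 genes with such a window, ETS letters in 24.6% and 9.93%, and YY1 letters in 10.1% and 1.64%. Measured genes hold these letters more often in general. Among measured genes the shares were 23.4% of 47 respiratory genes against 13.0% of 5642 genes for NRF1, 27.7% against 24.0% for ETS, and 10.6% against 4.61% for YY1. A match is a run of letters, not a shown binding site. Sdha and Cox6a1, both among the highest genes, and Ndufs7, which returns in the genotype comparison, are shown because they carry the 3 motifs between them. Capitals mark the matches: 3 of NRF1 in Sdha (chr13:74350191-74350490, minus strand), 2 of NRF1 and 1 of ETS, read from the opposite strand, in Cox6a1 (chr5:115348909-115349208, minus strand), and 1 of YY1 in Ndufs7 (chr10:80249199-80249498, plus strand).
Sdha: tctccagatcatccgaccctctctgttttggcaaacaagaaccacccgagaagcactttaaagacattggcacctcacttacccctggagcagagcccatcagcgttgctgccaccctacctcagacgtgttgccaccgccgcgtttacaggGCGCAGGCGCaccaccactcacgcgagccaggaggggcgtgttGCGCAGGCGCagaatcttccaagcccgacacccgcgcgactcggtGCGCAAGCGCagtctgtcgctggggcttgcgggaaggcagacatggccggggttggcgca
Cox6a1: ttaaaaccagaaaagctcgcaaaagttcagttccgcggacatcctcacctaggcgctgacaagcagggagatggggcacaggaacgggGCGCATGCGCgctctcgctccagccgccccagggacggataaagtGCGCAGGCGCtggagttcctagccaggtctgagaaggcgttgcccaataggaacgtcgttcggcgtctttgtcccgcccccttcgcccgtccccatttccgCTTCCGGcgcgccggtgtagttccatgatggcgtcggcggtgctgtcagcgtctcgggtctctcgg
Ndufs7: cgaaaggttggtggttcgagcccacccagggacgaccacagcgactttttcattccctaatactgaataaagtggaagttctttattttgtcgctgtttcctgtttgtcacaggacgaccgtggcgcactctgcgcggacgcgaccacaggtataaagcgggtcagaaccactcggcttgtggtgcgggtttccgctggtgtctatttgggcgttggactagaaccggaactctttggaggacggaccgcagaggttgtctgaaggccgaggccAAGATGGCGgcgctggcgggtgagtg

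Several subunits exist as isoforms with tissue-restricted forms, and in each set 1 form held nearly all of the signal. Cox4i1 stood at 272 CPM per kb in macrophages and 207 CPM per kb in microglia, whereas its lung-enriched and hypoxia-linked partner Cox4i2 had 0 counts in 400 macrophages and 19 counts in 3 of 215 microglia. The 0 counts allow a level of up to 0.0258 CPM in macrophages, for counting error only. Cox6a1 stood at 125 and 96.1 CPM per kb, and the muscle form Cox6a2 at 0.636 and 1.67 CPM per kb. Cox7a2 stood at 31.3 and 22.5 CPM per kb, and the muscle form Cox7a1 at 0.799 and 0.477 CPM per kb. Cox6b1 stood at 78.9 and 48.1 CPM per kb, against 2.94 and 2.71 CPM per kb for the testis form Cox6b2. Cox8a had a count in 92.75% of macrophages and 93.0% of microglia, whereas Cox8b and Cox8c had none. Cox7b stood at 13.3 and 10.6 CPM per kb, and Cox7b2 had 0 counts. Ndufa4 stood at 46.6 and 29.8 CPM per kb, and Ndufa4l2 had 0 counts. Ndufb11b was the fifth gene with 0 counts.

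The c subunit of ATP synthase, which forms the rotating ring, is encoded by Atp5g1, Atp5g2 and Atp5g3, whose mature proteins are known to be identical. Atp5g3 stood at 56.0 CPM per kb in macrophages and 53.1 CPM per kb in microglia. Atp5g1 stood at 0.331 and 0.480 CPM per kb, and Atp5g2 at 1.74 and 1.48 CPM per kb. Their order depends on length, with 4912 merged exon bases for Atp5g1 and 731 for Atp5g2. In CPM, Atp5g1 lay above Atp5g2, at 1.63 against 1.27 in macrophages and 2.36 against 1.08 in microglia. These 2 genes also have near-identical processed pseudogenes. Counts on the copies of Atp5g1 were 37.6% of the gene and its copies summed, and those on the copies of Atp5g2 were 29.0%. How reads shared between copies were counted is not given in the sources used here, so their levels are uncertain.

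Such copies were common in the set. A pseudogene copy of at least 90% identity over at least 80% of the coding sequence was found for 32 genes, and of at least 98% for 13 genes. Near-identical genes not annotated as pseudogenes, such as Gm11273 for Cox5b, were not counted as copies. The 13 genes had a median of 7.76 CPM per kb, and 4 of them were measured. The 52 genes with an annotated coding sequence but without such a copy had a median of 41.55 CPM per kb, and 39 of them were measured. Without the 8 tissue-restricted forms named above, this median was 45.4 CPM per kb over 44 genes. The 19 genes with copies of 90 to 98% identity lay at 38.2 CPM per kb. Cox7c, a small subunit of complex IV, shows how alike the copies can be. Its mean level over both cell types was 6.38 CPM, and 29.25% of macrophages and 35.8% of microglia held a count. Its 189 coding bases are identical in Gm12338, which stood at 0.0883 CPM, and differ at 10 positions in Gm20091, written in capitals. Any read within the coding sequence of Cox7c would match Gm12338 as well, and whether low levels of such genes come from reads that were dropped was not tested.
Cox7c: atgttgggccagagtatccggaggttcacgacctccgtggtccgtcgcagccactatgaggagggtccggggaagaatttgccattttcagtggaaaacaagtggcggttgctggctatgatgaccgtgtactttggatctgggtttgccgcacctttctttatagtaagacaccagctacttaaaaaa
Gm20091: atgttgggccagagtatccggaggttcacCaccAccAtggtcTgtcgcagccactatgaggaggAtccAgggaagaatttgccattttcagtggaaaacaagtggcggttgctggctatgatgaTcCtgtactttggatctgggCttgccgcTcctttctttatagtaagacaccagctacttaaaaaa

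The study's cell types allow the set to be compared between macrophages and microglia within the same genotype and plate. Macrophages had the higher summed level in all 8 pools, by a small margin. The 90 genes summed to 4530 to 5859 CPM in macrophage pools, with a median of 5404 CPM, and to 4111 to 5115 CPM in microglia pools, with a median of 4353 CPM. Of the macrophage pools, 6 lay above every microglia pool, and the exceptions were the Het and KO pools of plate 524s. Within pools the mean ratio was 1.18-fold, a log2 difference of 0.24 ± 0.12 (SD over 8 pools), and it ran from 0.13 in the Het pool of plate 056s to 0.48 in the WT pool of plate 529s. It was 0.19 to 0.27 under 14 other ways of summing, scaling or leaving out cells and plates. Per cell, the set took a median of 0.549% of counts in macrophages (0.197% to 1.07%) and 0.452% in microglia (0.233% to 0.905%). Thinned cells gave 0.544% and 0.447%. Thinning keeps the expected share of each cell, so these values cannot show the part of depth, which was not tested.

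**Figure D1:**
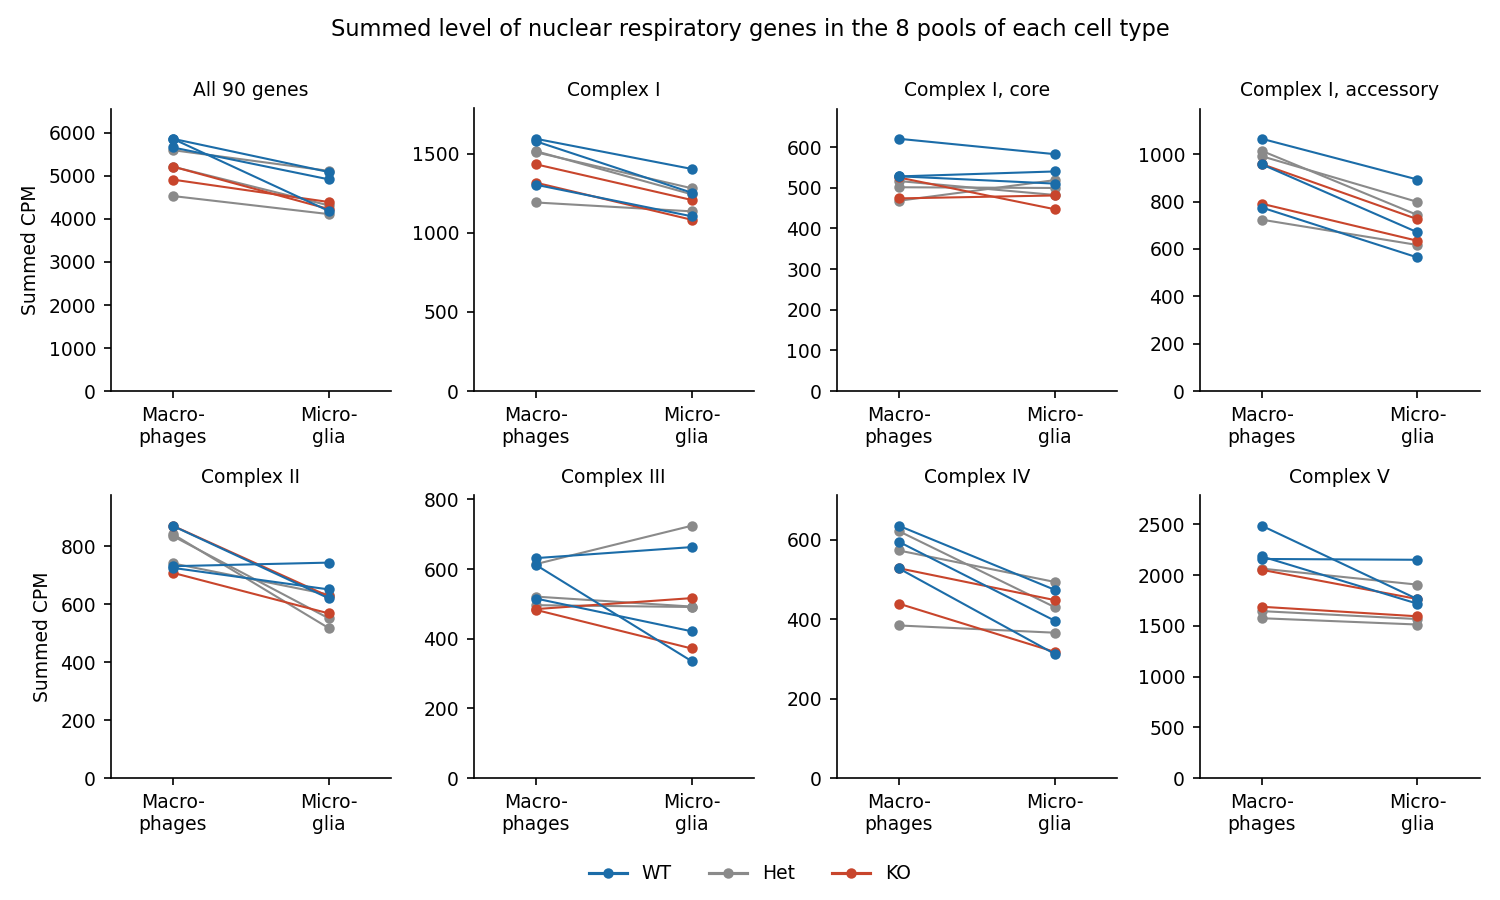
Summed CPM of all 90 genes and of each complex, with complex I also split into core and accessory subunits. Each line joins the macrophages and the microglia of 1 pool, coloured by genotype. Lines fall from left to right in 8 of 8 pools for all genes, complex I, its accessory subunits, complex IV and complex V, and cross for the complex I core and complex III.

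Complex I summed to 1191 to 1593 CPM in macrophage pools (median 1470) and 1082 to 1403 CPM in microglia pools (median 1225), a mean ratio of 1.18-fold that was above 1 in 8 of 8 pools. The difference lay in the accessory subunits. These 34 genes summed to 724 to 1065 CPM in macrophages (median 958) and 564 to 893 CPM in microglia (median 698). Their ratio was 1.29-fold, a log2 difference of 0.37 ± 0.10, above 0 in 8 of 8 pools. The 7 nuclear core genes summed to 468 to 620 CPM in macrophages (median 521) and 447 to 582.5 CPM in microglia (median 505). Their ratio was 1.02-fold, a log2 difference of 0.03 ± 0.11, and it was above 0 in 5 of 8 pools, so the core did not differ beyond its spread between pools. The accessory difference was 0.30 to 0.40 and the core difference -0.05 to 0.07 under the alternatives. The core genes are also longer, with a median exon length of 1623 bases against 884.5 bases for the 18 measured accessory genes, and the ratio of all genes moved with length, as given further on.

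Complex II, the only complex with no mitochondrially encoded subunit, summed to 708 to 870 CPM in macrophages (median 787.5) and 518 to 743 CPM in microglia (median 624). Macrophages were higher in 7 of 8 pools, with a mean ratio of 1.29-fold, and the WT pool of plate 059s was the exception. Complex IV summed to 384.5 to 635.5 CPM in macrophages (median 551) and 313 to 494 CPM in microglia (median 414). It was higher in macrophages in 8 of 8 pools, with a mean ratio of 1.33-fold, or 0.41 ± 0.22 in log2. Complex V summed to 1576 to 2487 CPM (median 2059) and 1514 to 2152 CPM (median 1741), a ratio of 1.13-fold above 1 in 8 of 8 pools. In the WT pool of plate 530s that log2 difference was 0.005, which is no difference. Complex III summed to 483 to 632 CPM in macrophages (median 518.5) and 336 to 724.5 CPM in microglia (median 492). Its ratio was 1.11-fold and above 1 in 5 of 8 pools, with a log2 SD of 0.35, so the sum of complex III did not differ beyond its spread. Single genes carried much of these sums. Uqcrc1 held 53.1% of complex III in macrophages and 54.4% in microglia, and Sdha 55.0% and 55.5% of complex II. In complex V, Atp5b held 36.73% and 37.35%, and Atp5a1 32.93% and 31.36%.

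A gene was called higher or lower when its mean ratio over the 8 pools was at least 1.5-fold and had the same sign in every pool. Of the 57 measured genes, 4 were called higher in macrophages and 0 lower. Over all 6987 measured genes the rule called 3.96% higher and 5.95% lower. All 4 called genes encode accessory subunits of complex I. Without plate 524s, which holds the macrophage pool with the fewest counts, 13 genes of the set were called higher and 0 lower, against 6.27% and 7.3% of all genes, so the count rests on that plate. The 9 genes added were Sdhc, Ndufa4, Cox6b1, Cox5a, Cox7a2, Ndufa13, Uqcr10, Uqcrfs1 and Atp5o. Over all plates, Ndufa4 and Cox7a2 were measured in macrophages only, so they entered through the cell type in which they were called higher. With microglia above their pool's median in macrophage markers left out, an alternative chosen after the data were seen, 2 genes were called. The share over all genes was not computed for that alternative.

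Ndufv3, a small subunit beside the NADH-binding site, ranged from 42.5 to 102.5 CPM over macrophage pools (median 51.5) and from 12.4 to 47.6 CPM over microglia pools (median 35.0). Its mean ratio was 1.83-fold, the highest of the set, but in the WT pool of plate 059s the levels were 47.62 CPM for macrophages and 47.57 CPM for microglia, which is no difference. Ndufa7 ranged from 39.3 to 62.9 CPM in macrophages (median 45.6) and from 10.2 to 39.1 CPM in microglia (median 29.3). All macrophage pools lay above all microglia pools, and the mean ratio was 1.74-fold. Ndufa7 was called in 20 of the 21 alternatives that kept all 3 genotypes and the mean over pools, the exception being the 2-fold limit, and in each genotype alone.

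Ndufb8, a membrane-arm subunit, ranged from 54.9 to 101.5 CPM in macrophages (median 75.4) and from 31.2 to 68.1 CPM in microglia (median 45.6), a mean ratio of 1.61-fold. The KO pool of plate 524s was nearly level, at 56.2 and 56.0 CPM. Ndufb8 shares exon bases with the readthrough gene model Gm20538, so its counts are uncertain. Ndufb10, also of the membrane arm, ranged from 39.8 to 81.1 CPM in macrophages (median 53.25) and from 20.9 to 55.9 CPM in microglia (median 35.25), a mean ratio of 1.57-fold. The pools of the cell types overlapped for Ndufv3, Ndufb8 and Ndufb10. They were called in 14, 18 and 14 of the same 21 alternatives. With 1 genotype alone, Ndufv3 was called in each, Ndufb8 in Het but not in WT or KO, and Ndufb10 in WT and Het but not in KO.

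**Figure D2:**
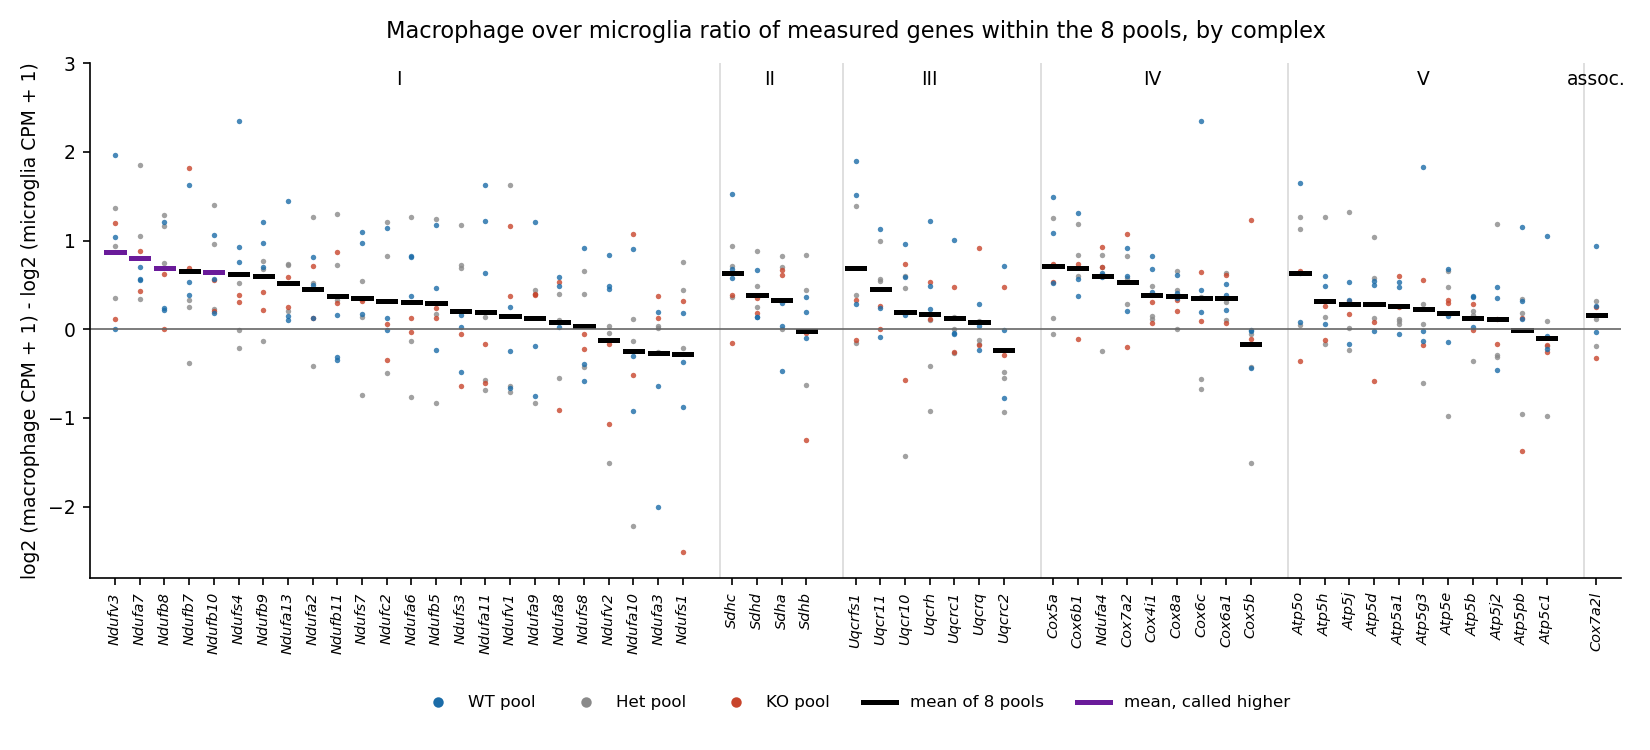
Log2 ratio of macrophages over microglia (CPM + 1) for measured genes. Points are the 8 pools, coloured by genotype, and bars their mean, purple where called. Means run from 0.87 for Ndufv3 to -0.28 for Ndufs1, and single pools spread by up to several log2 units.

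At any fold, 8 genes of the set were higher in macrophages in 8 of 8 pools and 0 were lower in 8 of 8 pools, against 5.05% and 6.51% of all measured genes. Besides the 4 called, these were Ndufa13 (1.44-fold), Sdhd (1.31-fold), Cox4i1 (1.30-fold) and Cox6a1 (1.28-fold). A mean ratio of 1.5-fold or more, whatever the pools, was reached by 13 genes upwards and 0 downwards, against 13.2% and 20.6% of all genes. The mean ratio was above 0 in 47 of the 57 genes, and the median log2 ratio was 0.30. Over all measured genes, 46.8% were above 0 and the median was -0.05. More of these genes were measured in microglia than in macrophages (6796 against 5483), unlike the set (53 against 57). Such a filter lowers the values over all genes and raises those of the set, and its part in the gap was not tested. Within single pools the median of the 57 genes ran from 0.11 to 0.59, with 33 to 48 of the 57 genes higher in macrophages.

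The 3 genes with the lowest mean ratios, none of them called, were Ndufs1 at -0.28, Ndufa3 at -0.27 and Ndufa10 at -0.25. Ndufs1, the largest core subunit of complex I, swung from 13.7 to 140 CPM over the macrophage pools, and its lowest value was the KO pool of plate 524s. Other core genes had mean log2 ratios between 0.35 for Ndufs7 and -0.12 for Ndufv2, with Ndufs3 at 0.20, Ndufv1 at 0.14 and Ndufs8 at 0.04. None of these 5 had the same sign in all pools. Among the complex II genes, Sdhc (membrane anchor) stood at 0.63, Sdhd (membrane anchor) at 0.39, Sdha at 0.33 and Sdhb (iron-sulphur subunit) at -0.02. In complex III, Uqcrfs1, the Rieske iron-sulphur protein, stood at 0.69, whereas the core proteins Uqcrc1 and Uqcrc2 stood at 0.13 and -0.23. In complex V, Atp5a1, Atp5b and Atp5c1 stood at 0.26, 0.13 and -0.09. Some named genes, among them Ndufs1, Ndufa3, Ndufa13, Uqcrc2, Cox4i1, Atp5a1 and Atp5d, share exon bases with another annotated gene, so their counts are uncertain.

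The ratio moved with transcript length over all genes, and nuclear respiratory genes are short. Their median exon length was 1113 bases, against 3450 bases over 6893 measured genes with a length. Among all genes under 1000 bases the median log2 ratio was 0.27 (206 genes), from 1000 to 2000 bases 0.05, from 2000 to 4000 bases -0.07 and above that -0.11. The genes of the set, which are part of those counts, had a median of 0.38 under 1000 bases (25 genes), 0.14 from 1000 to 2000 bases (25 genes) and 0.33 from 2000 to 4000 bases (7 genes). In each of these 3 length classes the set lay above all genes, by less in the first 2 classes than without regard to length. The part of length in the difference was not otherwise tested.

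**Figure D3:**
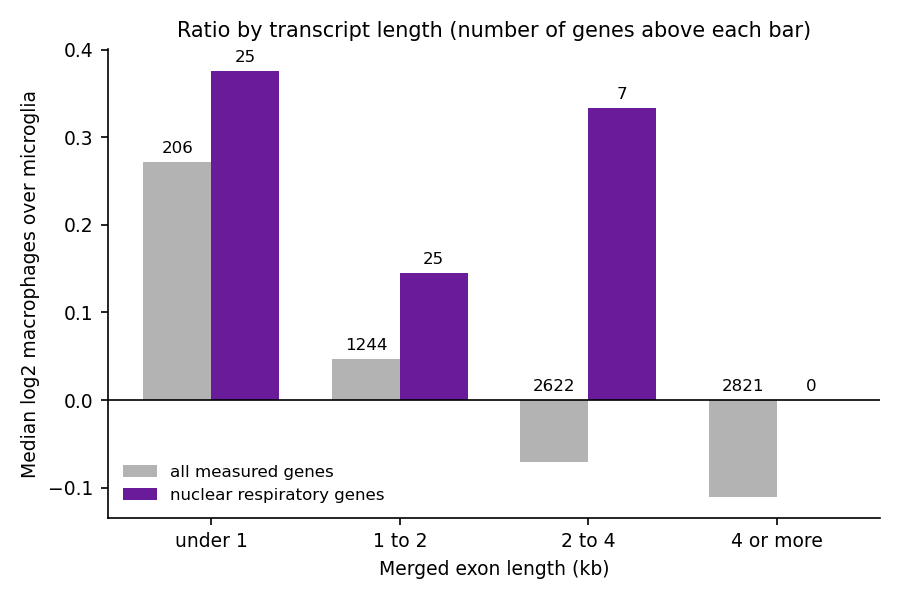
Median log2 ratio of macrophages over microglia by merged exon length, for all measured genes (grey) and the nuclear respiratory genes (purple), with the number of genes above each bar. Bars start at 0. Grey bars fall from 0.27 to -0.11 with length, and the purple bars lie above the grey ones in the 3 classes that hold genes of the set.

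The other genes of the pathway did not move with the nuclear subunits as a block. Of 44 assembly factors, which build the complexes but are not part of them, 19 were measured, with a median log2 ratio of 0.11, 10 above 0 and 9 below. None was called. Of 13 citrate cycle genes, all were measured, with a median of -0.13, 6 above 0 and 7 below, and 1 was called lower. Of 10 regulators of mitochondrial biogenesis, 6 were measured (Pprc1, Nrf1, Gabpa, Gabpb1, Tfam and Yy1), all 6 below 0, with a median of -0.54 and none called. Of 13 mitochondrially encoded subunits, 7 were measured, with a median of -0.11, 2 above 0 and 5 below, and none called. The other 6 (mt-Nd3, mt-Nd4l, mt-Co2, mt-Co3, mt-Atp6 and mt-Atp8) were at or near 0 in both cell types, mt-Co2 at 0 in all pools, so the mitochondrially encoded set is measured only in part. Of 4 further respiratory genes that the symbol rule misses, Cyc1, Ndufab1 and Atpif1 were measured, with a median of 0.33. Markers of other cell types also differed between the pools: oligodendrocyte markers summed to 498 to 1645 CPM in macrophages and 317 to 648 CPM in microglia, and astrocyte markers to 51.3 to 217 and 22.9 to 172 CPM. Endothelial markers summed to 0.0590 to 26.1 and 0.312 to 87.7 CPM. Nearly all of their microglia mean of 52.8 CPM was 1 gene, Pecam1, at 52.1 CPM. Fibroblast, neuron and erythrocyte markers reached at most 36.7, 130 and 258 CPM in macrophages and 55.8, 24.3 and 3.64 CPM in microglia. The part of all these markers in the result was not tested.

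The median ratio of the set lay above that over all genes in each genotype, but the counts of genes past the fold limit varied. In WT cells, 19 genes of the set were at least 1.5-fold higher in macrophages in all 3 pools and 0 lower, against 13.5% and 12.5% of all genes. In Het cells, 10 were higher and 2 lower in all 3 pools, against 13.1% and 17.5%. In KO cells, 8 of the 57 were higher and 2 lower in both pools, against 14.4% and 23.3%. The count of higher genes in KO was thus no larger a share than over all genes. The median log2 ratio of the 57 genes was 0.43 in WT, 0.21 in Het and 0.27 in KO cells, and 0.09, -0.10 and -0.09 over all genes. Whether these medians differ between genotypes was not tested.

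The 3 genotypes allow KO cells to be compared with both WT and Het cells. The summed level of the 90 genes was lowest in KO in both cell types. In macrophages it was 5859, 5858 and 5658 CPM in the WT pools, 5595, 4530 and 5212 CPM in the Het pools, and 5213 and 4911 CPM in the KO pools. Both KO pools lay below all WT pools but within the range of the Het pools. In microglia the WT pools stood at 5088, 4186 and 4918 CPM, the Het pools at 5115, 4111 and 4313 CPM and the KO pools at 4229 and 4392 CPM, where all 3 groups overlapped. Summed over cells, KO was 5134 CPM against 5740 in WT and 5501 in Het macrophages, and 4321 CPM against 4950 in WT and 4804 in Het microglia. Among the Het pools of each cell type, these sums differed between plates by at least as much as between genotypes. The WT macrophage pools and the KO pools of both cell types lay closer together. Pools on different plates also differed in depth and Rn18s share, and may differ in animal, so the part of plate itself was not tested. Within plate 524s, which holds both genotypes, KO was above Het in macrophages (4911 against 4530 CPM) and in microglia (4392 against 4111 CPM), the opposite of the order over all plates. Without plate 056s, the log2 difference of KO over Het was 0.072 in macrophages and 0.025 in microglia, instead of -0.10 and -0.15. The Het cells of plate 056s were also the deepest, with a median of 891300 counts per macrophage and 1003000 per microglia, and their Rn18s share was the lowest; the part of depth was not tested. KO macrophages were the shallowest, with a median of 124693 counts per cell against 225315 in WT and 285909 in Het.

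By complex, KO macrophages stood at 1346 CPM for complex I (WT 1559, Het 1488), 828 CPM for complex II (WT 739, Het 753), 484 CPM for complex III (WT 561, Het 601), 463 CPM for complex IV (WT 602, Het 565) and 1958 CPM for complex V (WT 2196, Het 2006). Complex II was the only complex with a higher sum over KO cells, but its KO pools were the highest (870 CPM on plate 060s) and the lowest (708 CPM on plate 524s) of all 8 macrophage pools. KO microglia stood at 1152 CPM for complex I (WT 1339, Het 1254), 594 CPM for complex II (WT 711, Het 596), 453.5 CPM for complex III (WT 577, Het 641), 391 CPM for complex IV (WT 440, Het 464) and 1669 CPM for complex V (WT 1810, Het 1779). Complex II was level between KO and Het there, and the KO pool of plate 524s, at 517 CPM for complex III and 448.5 CPM for complex IV, lay above both the WT pools of plates 529s and 530s and the Het pools of plates 524s and 529s, so the order over cells was not that of the pools.

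A gene was called in KO when KO lay at least 1.5-fold beyond both WT and Het and both KO pools lay beyond all 6 control pools. In macrophages 1 of the 57 genes was called, higher in KO, against 2.48% of the 5483 genes measured there called in either direction. The called gene was Cox5b, a zinc-binding subunit of complex IV. In macrophages it reached 20 CPM only in KO cells, so it was measured through the group in which it was called higher. It stood at 19.5 and 25.0 CPM in the KO pools, at 9.02, 10.5 and 14.6 CPM in the WT pools, and at 10.2, 11.7 and 12.7 CPM in the Het pools, so the KO pools did not overlap the controls. The log2 ratio was 0.70 over WT and 0.94 over Het. Cox5b also has a near-identical annotated gene, Gm11273, and the call was lost with the cells' own CPM averaged, with the top cell of each pool left out, with a pseudocount of 10 and with Rn18s in the total.

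In microglia 1 of 53 genes was called, lower in KO, against 2.22% of the 6796 genes measured there called in either direction. The gene was Ndufs7, a core subunit of complex I that carries an iron-sulphur cluster, whose promoter is printed above. It stood at 45.4 and 54.6 CPM in the KO pools, at 92.3, 65.7 and 65.9 CPM in the WT pools, and at 89.8, 71.5 and 96.7 CPM in the Het pools. The log2 ratio was -0.72 against WT and -0.81 against Het. In macrophages Ndufs7 stood at 57.5 and 68.4 CPM in the KO pools, against 104, 141 and 130 CPM for WT and 99.2, 105 and 57.3 CPM for Het. There the log2 ratios were -1.01 and -0.67, but the Het pool of plate 529s was as low as KO, so the gene was not called.

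A single gene of 57 or of 53 is no larger a share than over all genes, and the counts rested on single plates. Without plate 060s, which leaves 1 KO pool, 8 genes were called in macrophages (2 higher and 6 lower, against 7.17% and 13.1%) and 4 in microglia (1 higher and 3 lower, against 4.96% and 6.0%). Without plate 524s, 6 were called in macrophages (0 higher and 6 lower, against 4.09% and 4.92%) and 3 in microglia (0 higher and 3 lower, against 6.32% and 4.57%). Without plate 529s, macrophages had 2 calls (1 higher and 1 lower, against 1.55% and 3.99%). Without plate 059s, Cox5b was not called in macrophages and no gene was called in microglia.

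At any fold, both KO pools lay above all controls for Cox5b and Uqcrq, and below for Sdhb, Atp5d, Atp5j and Ndufb10, in macrophages, against 2.66% and 3.19% of all genes. Atp5d, the delta subunit of ATP synthase, stood at 95.3 and 76.6 CPM in the KO pools, against 154, 149 and 159 CPM for WT and 136, 125.5 and 99.7 CPM for Het. Its WT pools were the highest group, and its lowest Het pool lay close to KO. Ndufb10 stood at 39.8 and 50.4 CPM in KO and 52.6 to 81.1 CPM over the 6 control pools. In microglia Ndufs7 alone was separated in this way, against 2.77% of genes above and 1.43% below.

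The members with the largest mean of both KO ratios that were not called had overlapping pools. In macrophages these were, downwards, Ndufv2 (log2 -0.77 over WT and -1.01 over Het), Uqcr10 (-0.75 and -0.98) and Ndufs7, and, upwards beside Cox5b, Sdha (0.46 and 0.67) and Ndufs1 (0.43 and 0.64). In microglia they were, downwards beside Ndufs7, Ndufb7 (-0.91 and -0.67) and Ndufa9 (-0.58 and -0.90), and, upwards, Ndufc2 (0.14 and 0.87), Ndufa6 (0.58 and 0.31) and Ndufs1 (0.22 and 0.66).

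**Figure D4:**
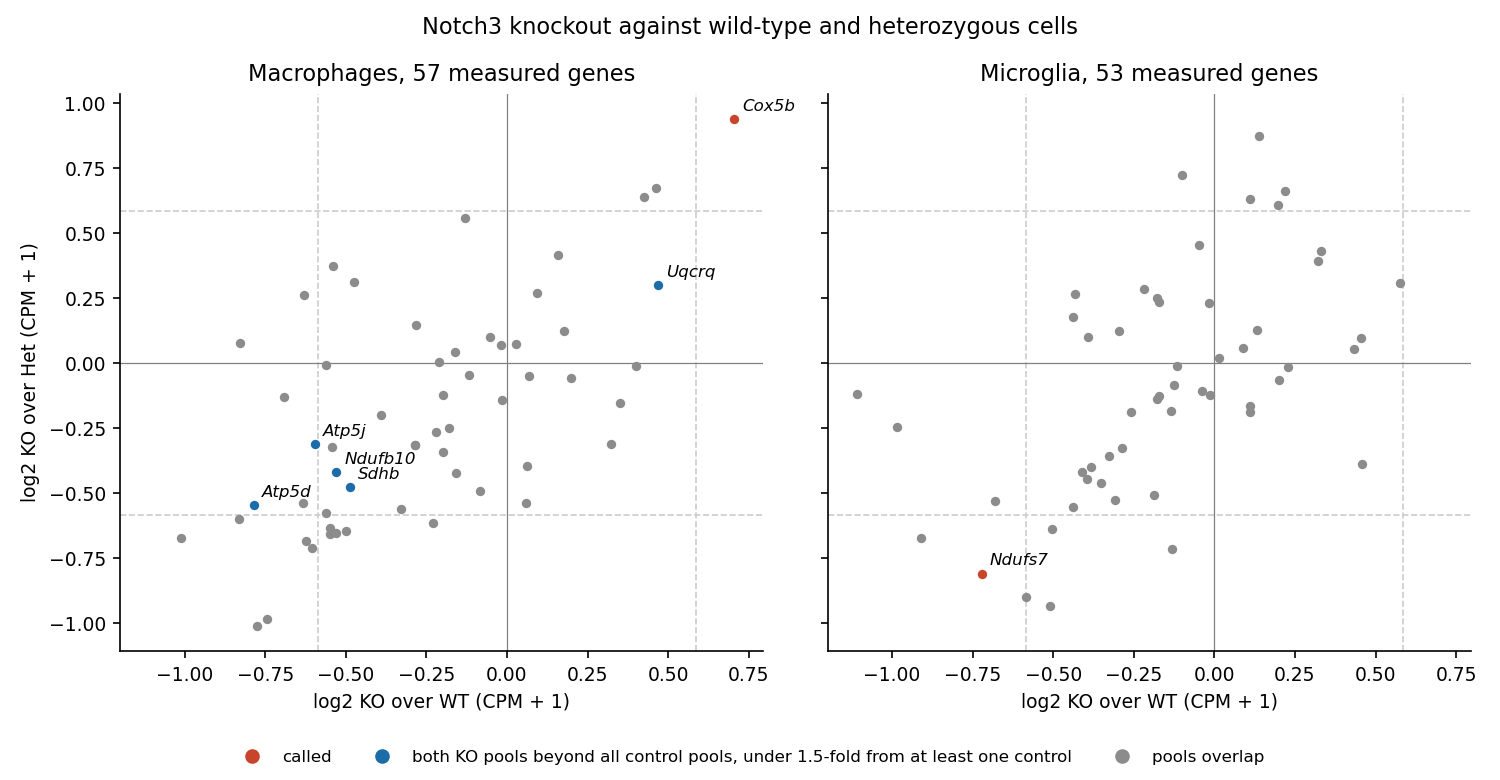
Log2 ratio of KO over WT (horizontal) and KO over Het (vertical), both on CPM + 1, for the measured genes in macrophages and microglia. Dashed lines mark 1.5-fold, red points are called, and blue points have both KO pools beyond all control pools at a smaller ratio. Cox5b at 0.70 and 0.94 is the only called gene in macrophages, and Ndufs7 at -0.72 and -0.81 in microglia.

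The whole set leaned downwards in KO by a little. In macrophages the median log2 ratio of the 57 genes was -0.23 over WT (15 above 0, 42 below) and -0.25 over Het (18 above, 39 below), against -0.06 and -0.07 over all genes. In microglia the median of the 53 genes was -0.17 over WT (17 above, 36 below) and -0.11 over Het (22 above, 31 below), against -0.04 and 0.01. The comparisons over WT and Het share the KO cells. By the ratio alone, 1 gene of the set was at least 1.5-fold above WT in KO macrophages and 12 below, against 9.25% and 15.1% of all genes, and 3 were above Het and 11 below, against 16.9% and 21.5%. In KO microglia 0 were above WT and 5 below, against 11.5% and 15.8%, and 5 were above Het and 6 below, against 15.9% and 15%. The 12 of 57 genes below WT in macrophages were the only one of these counts above the share over all genes. Within plate 524s the direction turned: the median of KO over Het was 0.26 in macrophages (35 above 0, 22 below) and 0.22 in microglia (34 above, 19 below), against -0.04 and 0.04 over all genes.

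Het cells were compared with WT by the same rule. In macrophages 0 genes were called higher and 1 lower, against 2.32% and 3.9% of all genes. The gene was Uqcrh, the hinge protein of complex III, at 29.5, 25.5 and 13.8 CPM in Het pools and 50.1, 49.3 and 43.4 CPM in WT pools, without overlap. KO macrophages stood at 40.3 and 46.7 CPM. Uqcrh was not called with a pseudocount of 10 or with Rn18s in the total. In microglia 0 were called higher and 2 lower, against 2.58% and 2.84%. Ndufs3, a core subunit of complex I, stood at 21.7, 26.4 and 16.5 CPM for Het against 37.9, 37.4 and 38.4 CPM for WT, and at 21.1 and 46.5 CPM in KO. Ndufb11, an X-linked accessory subunit, stood at 23.9, 18.3 and 33.2 CPM for Het against 56.2, 33.3 and 46.4 CPM for WT, where the nearest pools differed by almost nothing, and at 24.9 and 22.3 CPM in KO. Ndufs3 shares exon bases with Kbtbd4, and Ndufb11 with Rbm10. Without plate 056s, 524s, 529s or 530s, the macrophage count was 6, 3, 4 or 2, and without plate 059s, 529s or 530s the microglia count was 9, 6 or 5. The share over all genes was not computed with a plate left out, so these counts cannot be set against it.

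The largest Het over WT ratios that were not called were, in macrophages, Ndufs4 (log2 -0.92), Ndufb9 (-0.91) and Atp5g3 (-0.89) downwards and Sdhd (0.63), Atp5j2 (0.60) and Uqcr11 (0.50) upwards. In microglia they were Ndufv1 (-0.74) downwards and Ndufv2 (0.84), Cox6c (0.59) and Uqcrc2 (0.43) upwards. By the ratio alone, 2 genes of the set were at least 1.5-fold above WT in Het macrophages and 5 below, against 16.7% and 17.3% of all genes, and 2 and 6 in Het microglia, against 12.9% and 17.8%. The median ratio of the set was -0.01 in macrophages and 0.01 in microglia, with 28 of 57 and 27 of 53 genes above 0. Within plate 529s the median of Het over WT was -0.05 in macrophages and 0.37 in microglia.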

How the data were processed

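Single brain cells of Notch3 WT, Het and KO mice had been sequenced with SMART-seq2. The table deposited by the authors holds raw counts of 53546 gene symbols and 92 ERCC spike-in in 629 cells; the submitters' processing notes name STAR, and the build, annotation, counting program and cell filters are not given in the sources used here. Each cell was matched to its labels by column name. Counts were summed per pool and scaled to CPM of a total without ERCC and Rn18s (40.4% of gene counts), with ratios on CPM + 1. Named genes were the 10 highest per kb, up to 10 called genes per direction (otherwise the 3 largest ratios), and fixed core, catalytic and isoform genes. One gene of the set enters sums and counts but is not reported here. Members, lists and rules were chosen with earlier results of these data known. Lengths and copies came from GENCODE M21, which held 86 symbols, with 3 more by RefSeq synonym. A count of 0 was given the limit of 3 counts. Reads are not independent molecules, so limits cover counting error only. Python 3.11.15, pandas 2.3.3, numpy 2.4.6, scipy 1.17.1 and matplotlib 3.10.9 were used. Alternatives included edgeR 4.0.16 TMM and DESeq2 1.42.0 size factors.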

Additional observations from a re-analysis of the deposited data

How the results depend on the processing

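Alternatives changed 1 choice at a time. Of the compared sums, medians and counts, 286 values stayed within their limits and 61 moved. For single genes, 893 values moved by less than the spread over pools, 30 moved by more, and no called value turned sign. The summed ratios of all genes and of complexes I to V between the cell types kept their direction under every alternative run on them. The 4 genes called higher in macrophages became 8 at a lower fold limit (against 4.98% of all genes) and 0 at 2-fold. They became 19 in WT, 10 in Het and 8 in KO alone (against 13.5%, 13.1% and 14.4%). From summed counts 2 were called, and 2 without microglia high in macrophage markers, where the share over all genes was not computed. The 0 called lower became 2 in Het and 2 in KO alone. In KO macrophages the 1 call became 2 with TMM and 4 at the lower limit (1 higher and 3 lower, against 2.06% and 2.7% of all genes). It became 0 at 2-fold, with a pseudocount of 10, with cells' own CPM averaged, without each gene's top cell and with Rn18s in the total. On plates 056s, 059s and 060s alone it became 10 (2 higher and 8 lower, against 6.72% and 13.6% of all genes). On plates 524s, 529s and 530s alone it became 8 (3 higher and 5 lower, against 9.63% and 13.0%). In KO microglia the 1 call became 2 with the 5 CPM filter, 3 without a filter and 0 at 2-fold. On plates 056s, 059s and 060s alone it became 14 (1 higher and 13 lower, against 8.42% and 11.5% of all genes). On plates 524s, 529s and 530s alone it became 4 (3 higher and 1 lower, against 8.12% and 6.95%). For Het over WT macrophages the 1 call became 4 with thinned cells or the lower limit, 2 with the 5 CPM filter, no filter or averaged cells, 3 without top cells, and 0 at 2-fold, with a pseudocount of 10 or with Rn18s. For microglia the 2 calls became 1 with TMM, 5 at the lower limit, 4 with averaged cells, and 0 at 2-fold or with Rn18s. Leaving out 1 plate at a time gave 4 to 13 calls higher in macrophages, against 4.33% to 6.27% of all genes. It gave 1 to 8 for KO macrophages, 0 to 4 for KO microglia, and 1 to 6 and 2 to 9 for Het macrophages and microglia. Fewer pools loosen the rule, and for Het over WT the share over all genes was not computed under any alternative. With Rn18s in the total, the summed log2 KO over Het was -0.52 in macrophages and -0.36 in microglia, and KO over WT -0.36 in microglia. KO over Het was -0.16 to 0.072 in macrophages and -0.21 to 0.025 in microglia with 1 plate left out, and 0.048 in microglia on plates 524s, 529s and 530s alone; the cause was not tested. Genes per cell fell from 46 and 51 to 38 and 43 with cells thinned to 1 depth per cell type and to 29 and 35 at 5 counts or more. No paired analysis was possible because replicate numbers only name cells; the ratios within a pool or a plate are those given in the report.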

Other observations

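The 14 cells labelled only with the type number 7 held 763324 counts in all, with a median of 25329 counts per cell, too few for single genes. Their genotypes were not compared. Summed over the 14 cells, the 90 nuclear oxidative phosphorylation genes stood at 5688 CPM, with an exact Poisson 95% interval of 5520 to 5860 CPM that covers counting error only. Complex I stood at 1666 CPM (1576 to 1761), of which the core genes were 580 CPM (528 to 637) and the accessory genes 1086 CPM (1013 to 1163). Complex II stood at 588 CPM (535 to 645), complex III at 579 CPM (526 to 636), complex IV at 937 CPM (869 to 1008) and complex V at 1875 CPM (1779 to 1974). The complex IV interval lay above every macrophage pool, which reached 635.5 CPM, and every microglia pool, which reached 494 CPM. Complex II lay below the lowest macrophage pool of 708 CPM. Complex I and its accessory genes had intervals that reached into the range of the macrophage pools, and the other sums lay within it.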
